A study of Caenorhabditis elegans with 6 samples.

Results

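The genes described here are the nuclear hormone receptor (*nhr*) genes of *C. elegans* as templates of 22G-RNAs. They were chosen by name: every protein-coding gene listed with antisense 22G-RNAs whose name begins with *nhr-*, irrespective of its values. This gave 232 of the 19781 genes listed with 22G-RNAs, and of the 17352 protein-coding ones. The Ensembl 115 annotation holds 269 protein-coding *nhr* genes, and 37 of them had no 22G-RNA entry in any library.

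Small RNAs were cloned from whole synchronized adults fed OP50 bacteria, after removal of the outer 5′ phosphates so that triphosphorylated 22G-RNAs could be ligated. The untreated control, called wild-type below, was a strain in which the P granule protein PGL-1 carries RFP (genotype *pgl-1::RFP*, 2 libraries), and it was compared with *eggd-1* null animals (2 libraries). RNA of N2 wild-type worms (1 library) and of *eggd-1* null worms (1 library) was also treated with sodium periodate (NaIO4), which destroys the unmodified 3′ end of an RNA and leaves 2′-O-methylated ends clonable. The labels do not state whether the *eggd-1* null strain carried the PGL-1 tag, so the tag and the genotype cannot be told apart in the untreated comparison. The mutant lacks the whole open reading frame of *eggd-1*, which encodes a LOTUS domain protein that holds germ granules at the nuclear envelope.

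Nuclear hormone receptors are transcription factors that bind DNA through zinc fingers and are regulated by small lipophilic ligands, coactivators and corepressors. *C. elegans* has a far larger family than insects or vertebrates, most of it related to HNF4 and of unknown function. 22G-RNAs are made antisense to mRNAs by RNA-dependent RNA polymerases and are loaded into Argonaute proteins. Those in HRDE-1 and WAGO-1 go with silencing and depend largely on MUT-16, those that depend on PRG-1 are started by piRNAs, and CSR-1 binds 22G-RNAs of genes expressed in the germ line. A 22G-RNA level therefore measures the small RNAs against a receptor mRNA and not the mRNA itself.

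The genome-mapped reads per library ranged from 21883625 to 31245662 without oxidation, and 3 reads, the limit allowed by a count of 0, corresponded to 0.0960 to 0.137 RPM, the deposited unit, which is scaled to the genome-mapped reads of each library. The *eggd-1* gene, at positions 4793086 to 4795423 of chromosome III (WBcel235), had 78.1 and 81.1 RPM of 22G-RNAs in wild-type. It had 0.366 and 0.469 RPM in the mutant libraries, as the labels require. Muscle miR-1 and the heterochronic miRNAs lin-4 and let-7 were found in every library. The miR-35 to miR-42 family, which is abundant in oocytes and embryos, had 19343 and 16759 RPM in wild-type and 10642 and 10906 RPM in *eggd-1*, whereas miR-1 had 8334 and 8502 RPM in wild-type and 11138 and 11830 RPM in *eggd-1*. These groups did not overlap, and their part in the results below was not tested. In whole animals, fewer cells of a type and less RNA per cell cannot be told apart.

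Few receptor genes carried most of the 22G-RNAs of the family. The 232 genes summed to 1788 and 1737 RPM in wild-type, 0.441% and 0.443% of all 22G-RNAs. 5 genes held 50% of the wild-type sum and 28 genes held 90%, while 159 genes had a mean under 1 RPM and the median gene had 0.296 RPM. Reads were found for 202 and 205 of the genes in the wild-type libraries and for 183 and 193 in the *eggd-1* libraries. The wild-type libraries were deeper (28178881 and 31245662 genome-mapped reads against 21883625 and 23452187), so these numbers cannot be compared between genotypes. The family is thus a small set of heavily targeted genes beside many with only a few reads each.

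Per kilobase of exon, the 8 genes with the highest wild-type level were *nhr-249*, *nhr-15*, *nhr-1*, *nhr-58*, *nhr-229*, *nhr-204*, *nhr-236* and *nhr-228*. No function of these genes is stated here, as none is well established. The level of *nhr-249*, a gene with only 488 bases of exon on chromosome IV, was 322 and 329 RPM per kb in wild-type. That of *nhr-15*, at positions 312721 to 323650 of chromosome V, was 138 and 131 RPM per kb, and that of *nhr-1*, near the right end of chromosome X, was 70.5 and 70.7 RPM per kb. These first 3 levels were separated by far more than the spread between replicates. The next 3 were not: *nhr-58* had 52.8 and 47.2, *nhr-229* had 48.2 and 49.7, and *nhr-204* had 48.2 and 41.4 RPM per kb. Several of these genes, among them *nhr-15*, *nhr-1*, *nhr-249*, *nhr-228* and *nhr-229*, had fractional counts, which arise where a read was shared between genome locations or overlapping features.

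Loss of *eggd-1* was compared with wild-type to ask how 22G-RNAs depend on perinuclear germ granules. The summed 22G-RNAs of the receptor genes were lower in *eggd-1*, with 1312 and 1385 RPM. Both values lay below both wild-type values, and the ratio of *eggd-1* to wild-type was 0.765 ± 0.0333 (SD, n = 2 libraries per genotype). The ratio over all 22G-RNA genes was 0.956 ± 0.0261. With 2 against 2 libraries, an exact two-sided permutation test cannot give a p below 0.33, so neither sum was tested. The family's share of all 22G-RNAs was 0.348% and 0.360% in *eggd-1*, again below both wild-type shares.

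The change of the sum came from few genes. The mean of *nhr-1* was lower in *eggd-1* by 92.7 RPM, that of *nhr-48* by 83.97 RPM and that of *nhr-204* by 62.2 RPM. Against this, the mean of *nhr-229* was 119 RPM higher in *eggd-1*. In all, 162 of the 232 genes had a lower mean in *eggd-1* and 70 a higher one, many of them on a handful of reads. The same count was not made over all genes, so this split cannot be read as particular to the receptor genes. All tested genes leaned downward as well, with 40.8% called lower and 21.7% called higher in the gene-by-gene test below.

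Gene by gene, 106 of the 232 receptor genes had enough reads for the edgeR quasi-likelihood test, whose p-values were adjusted by Benjamini-Hochberg over all 11741 genes tested. 22G-RNAs of 58 receptor genes fell and those of 15 rose at an adjusted p below 0.05, which is 54.7% and 14.2% of those tested. Over all tested genes the percentages were 40.8 lower and 21.7 higher. The median log2 fold change was -0.65 over the tested receptor genes and -0.18 over all tested genes. With at least a 2-fold change required as well, 38 fell and 10 rose (35.8% and 9.43%, against 16.1% and 9.3% of all tested genes). In each of the called genes, neither *eggd-1* library overlapped the wild-type libraries. With 2 libraries per genotype such separation largely goes with the call and adds no support, and it was not counted over all called genes. A gene that passes the read filter through 1 genotype alone is more likely to differ in that direction. Through the wild-type libraries only, 18 genes passed, of which 14 fell, and 4 passed through the *eggd-1* libraries only, of which 3 rose. Among the 82 genes that passed in both genotypes, 44 fell and 12 rose (53.7% and 14.6%). The same split was not made over all tested genes.

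The remaining 126 receptor genes were not tested. Their means over the untreated libraries were between 0.125 and 10.25 reads, and 89 of them had reads in both genotypes, 27 in wild-type only and 10 in *eggd-1* only. The greater depth of the wild-type libraries by itself favours reads in wild-type only. When edgeR was run without the filter, 7 of them fell and 2 rose, on means of 1.75 to 8.63 reads. Over all 230 receptor genes in that fit, 27.8% fell and 6.96% rose, against 25.4% and 14% of all genes. The gap between the shares that fell was thus much smaller there. Over the genes of the main fit alone, the unfiltered shares were 53.8% and 13.2% of receptor genes and 40.1% and 21.3% of all genes. With a mean of at least 50 reads required, 52 receptor genes were left, of which 35 fell and 9 rose, against 47.1% and 20.7% of all genes with such a mean. With DESeq2, which scales to the median gene, 30 receptor genes fell and 13 rose. Of the receptor genes to which it gave an adjusted p, 24.6% fell and 10.7% rose, against 19.4% and 18.9% of all genes with an adjusted p. Over the genes that edgeR tested, the DESeq2 shares were 28.3% and 12.3% of receptor genes and 20.8% and 20.2% of all genes. The gap between the shares that fell was thus smaller in percentage points than with edgeR (54.7% against 40.8%). DESeq2 also called fewer falls in both sets. TMM scaling moved the median of all genes from -0.18 to -0.03 and that of the receptor genes to -0.51, so the difference between the medians stayed at -0.47, but it was -0.26 with limma on log2(RPM + 1), which understates changes of low genes.

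**Figure D1:**
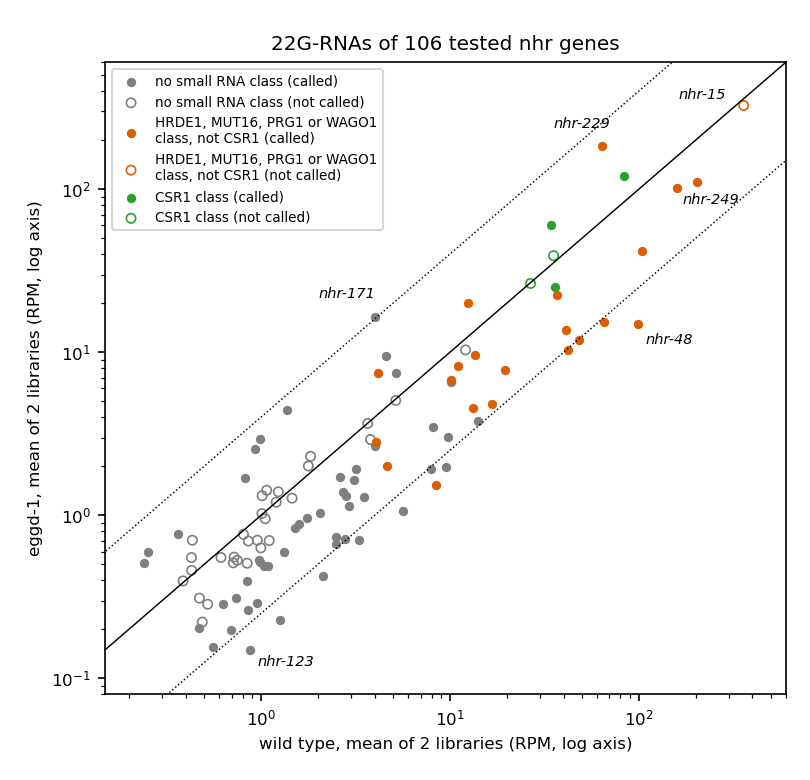
Mean 22G-RNA level (RPM, log axes) of each of the 106 tested receptor genes in wild-type and *eggd-1*, coloured by the small RNA class in the deposited tables; filled points passed an adjusted p of 0.05 and dotted lines mark a 4-fold difference. Most filled points lie below the diagonal (58 against 15), with *nhr-48* farthest below it among the abundant genes and *nhr-229* and *nhr-171* above it.

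Receptors with relatives in insects and vertebrates were considered first. The list held 10 genes, of which 8 were tested, 2 fell and 2 rose. Over all tested genes 40.8% fell and 21.7% rose, and this list is too short to be read against these shares. *nhr-48*, a relative of the vitamin D and pregnane X receptors of vertebrates, had 103 and 94.4 RPM in wild-type and 14.7 and 15.2 RPM in *eggd-1*. Both *eggd-1* libraries were far below both wild-type libraries, and replicates were close. The fall was 6.62-fold (log2 fold change -2.73 ± 0.08, SE, edgeR adjusted p = 6.85e-23), the largest on the log2 scale among the tested receptor genes. The related *nhr-8*, which acts in xenobiotic resistance and cholesterol homeostasis, went the other way: it had 4.29 and 4.03 RPM in wild-type and 6.72 and 8.19 RPM in *eggd-1*. Its log2 fold change was 0.84 ± 0.14 (SE, edgeR adjusted p = 6.00e-06).

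*nhr-23*, the ROR-type receptor that drives molting, had 83.8 and 83.7 RPM in wild-type and 116 and 126 RPM in *eggd-1*. Its wild-type libraries were almost equal and both *eggd-1* libraries were higher, a rise of 1.45-fold (log2 fold change 0.53 ± 0.07, SE, edgeR adjusted p = 1.19e-07). *nhr-6*, the NR4A-type receptor needed for ovulation and the spermatheca, had 2.91 and 2.56 RPM in wild-type and 1.65 and 1.15 RPM in *eggd-1*. The groups did not overlap and the fall was 1.96-fold (edgeR adjusted p = 0.000551), but it did not pass with DESeq2. 4 genes were tested and not called, all with a mean of under 30 reads: *nhr-25* (Ftz-F1 type, with roles in epidermis and molting), *nhr-41* (TR2/TR4 type), *nhr-85* (Rev-erb and E75 type) and *nhr-91* (GCNF type). Their fold changes on the log2 scale lay between -0.28 and 0.13, with SE from 0.31 to 0.45, and their libraries overlapped between genotypes. *nhr-67*, the Tailless-type receptor, and *nhr-111* had 0.25 and 1.125 reads on average and were not tested.

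Among receptors with known roles in metabolism, 7 of 11 were tested, 4 fell and 2 rose, again too few to read against the 40.8% and 21.7% of all tested genes. *nhr-49*, the HNF4-related regulator of fatty acid oxidation and desaturation, had 35.1 and 36.9 RPM in wild-type and 24.2 and 25.8 RPM in *eggd-1*. The groups were well apart and the fall was small, 1.44-fold (edgeR adjusted p = 6.29e-07). *nhr-66*, a partner of NHR-49 in lipid metabolism, had 35.6 and 32.9 RPM in wild-type and 57.6 and 62.8 RPM in *eggd-1*. Its rise of 1.76-fold (edgeR adjusted p = 5.41e-11) was thus opposite in direction to the fall of *nhr-49*. *nhr-64*, linked to lipid metabolism, had 8.52 and 8.42 RPM in wild-type and 1.23 and 1.83 RPM in *eggd-1*. It fell 5.47-fold (log2 fold change -2.45 ± 0.17, SE, edgeR adjusted p = 1.42e-13), with no overlap.

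The rest of the metabolic list had smaller or less certain values. *nhr-10*, a regulator of propionate breakdown, had 9.87 and 10.5 RPM in wild-type and 6.12 and 6.99 RPM in *eggd-1*, and fell 1.55-fold (edgeR adjusted p = 3.00e-05). *nhr-68*, which acts with NHR-10 in the same pathway, had only 0.319 and 0.160 RPM in wild-type and 0.503 and 0.512 RPM in *eggd-1*. It passed narrowly (edgeR adjusted p = 0.0438), on a mean of 9.25 reads, and lost the call with DESeq2 and whenever any 1 library was left out. *nhr-13*, another partner of NHR-49, fell 1.82-fold (edgeR adjusted p = 0.0107), from 1.31 and 1.73 RPM to 0.731 and 0.938 RPM, and its call was lost with DESeq2. *nhr-114*, which protects the germ line from diet-derived stress, had 0.923 and 0.768 RPM in wild-type and 0.548 and 0.469 RPM in *eggd-1* and did not pass (edgeR adjusted p = 0.0769). *nhr-62*, *nhr-69*, *nhr-76* and *nhr-80*, the last a regulator of fatty acid desaturation, had means of at most 5.50 reads.

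Receptors with roles in stress responses or in single tissues gave 3 falls and no rise among 6 tested of 7 listed. This list, too, is too short to be read against the 40.8% and 21.7% of all tested genes. *nhr-40*, needed for muscle development, had 13.2 and 14.2 RPM in wild-type and 8.66 and 10.5 RPM in *eggd-1*, a fall of 1.42-fold (edgeR adjusted p = 0.000136). *nhr-14*, which acts in innate immunity and iron uptake, had 1.14 and 1.06 RPM in wild-type and 0.685 and 0.298 RPM in *eggd-1* (edgeR adjusted p = 0.00630). *nhr-57*, a target of the hypoxia factor HIF-1, had 1.31 and 1.86 RPM in wild-type and 0.960 and 0.810 RPM in *eggd-1* (edgeR adjusted p = 0.0111). These 3 genes were separated between genotypes, but none of them kept its call with DESeq2. *nhr-40* and *nhr-57* also share exon sequence on their own strand with another annotated gene, so part of their reads may belong to that gene.

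*nhr-86*, an intestinal receptor of the immune response, had 36.8 and 34.1 RPM in wild-type and 38.8 and 39.5 RPM in *eggd-1*. Its libraries did not overlap, and its log2 fold change of 0.14 ± 0.07 (SE) missed the threshold (edgeR adjusted p = 0.0874), but it passed with TMM factors (0.29), with DESeq2 (0.30) and with the 22G-RNA total as library size (0.21). *nhr-2*, which acts in early embryos, had 1.77 and 1.79 RPM in wild-type and 2.01 and 2.00 RPM in *eggd-1*, and *nhr-31*, which shapes the excretory cell, had 0.355 and 0.512 RPM in wild-type and 0.640 and 0.768 RPM in *eggd-1*. Neither passed (edgeR adjusted p = 0.519 and 0.117).

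**Figure D2:**
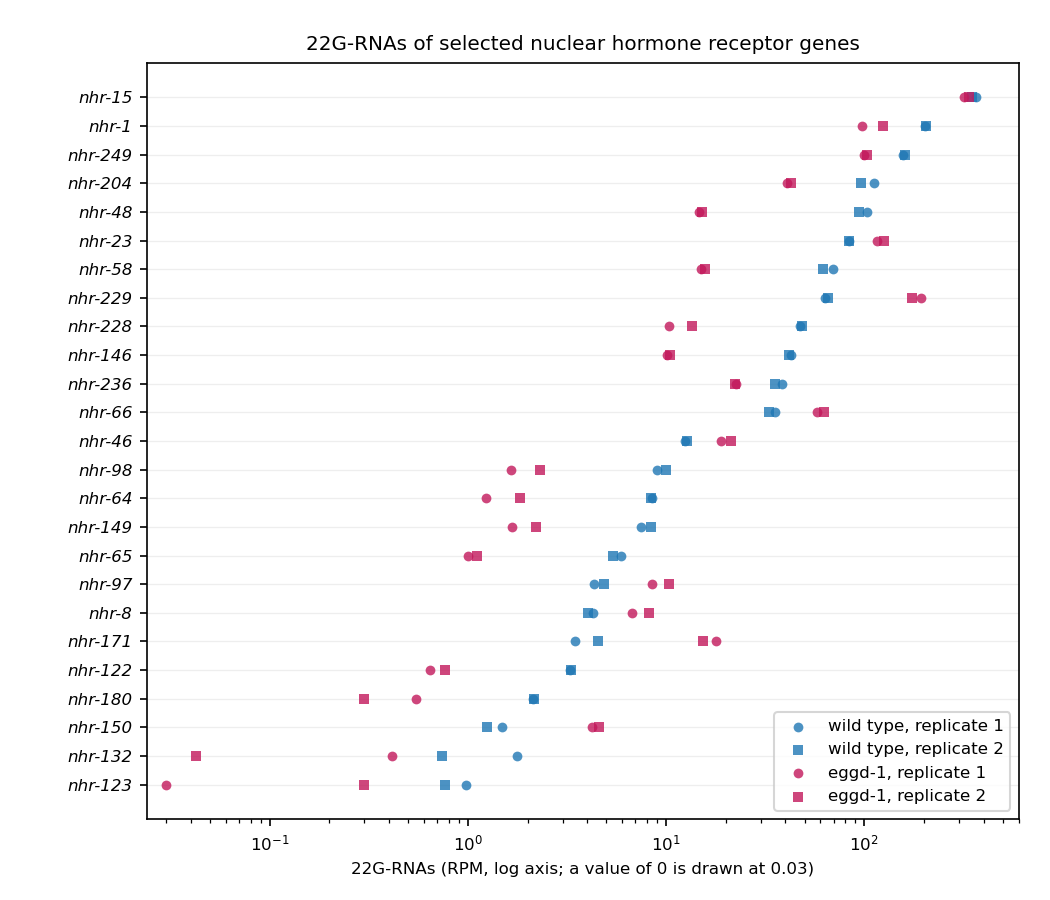
22G-RNA level (RPM, log axis) in each of the 4 untreated libraries for the receptor genes with the highest level per kb, those called with at least a 4-fold change and the 8 largest rises among genes with a mean of at least 50 reads. Blue and magenta points separate in every gene shown, with *nhr-15* the closest (368 and 351 against 318 and 336 RPM). All genes shown except *nhr-15* were called, and such separation largely goes with the call.

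12 receptor genes fell by at least 4-fold and 1 rose by as much, 11.3% and 0.943% of the 106 tested, against 4.81% and 2.04% of all tested genes. Beside *nhr-48* these included *nhr-58*, with 69.5 and 62.1 RPM in wild-type and 14.9 and 15.8 RPM in *eggd-1*, and *nhr-228*, with 47.6 and 48.6 RPM in wild-type and 10.3 and 13.5 RPM in *eggd-1*. *nhr-146* had 42.8 and 41.6 RPM in wild-type and 10.1 and 10.5 RPM in *eggd-1*. In each the libraries of a genotype lay close together and the genotypes far apart, with log2 fold changes of -2.10 ± 0.08, -2.01 ± 0.09 and -2.03 ± 0.08 (SE, edgeR adjusted p of at most 2.48e-18). *nhr-65*, *nhr-98*, *nhr-122* and *nhr-149* fell by log2 fold changes of -2.41, -2.26, -2.22 and -2.03 from wild-type means of 3.29 to 9.51 RPM.

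The other large falls rested on fewer reads. *nhr-180* had 2.12 and 2.14 RPM in wild-type and 0.548 and 0.298 RPM in *eggd-1*. *nhr-132* had 1.77 and 0.736 RPM in wild-type and 0.411 and 0.0426 RPM in *eggd-1*, and *nhr-123* had 0.976 and 0.768 RPM in wild-type and 0 and 0.298 RPM in *eggd-1*. In *nhr-132* and *nhr-123* the spread within a genotype was large, their log2 fold changes had SE of 0.52 and 0.55, and *nhr-123* did not pass with DESeq2 (adjusted p = 0.292). Several folds lie near the 4-fold limit, and *nhr-48* alone was at 4-fold or more in all 15 settings and passed when the 4-fold limit was put into the test.

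Among the 15 rises, *nhr-171*, on chromosome V, had 3.48 and 4.54 RPM in wild-type and 17.8 and 15.3 RPM in *eggd-1*. The groups were far apart and the rise was 4.09-fold (log2 fold change 2.03 ± 0.13, SE, edgeR adjusted p = 4.80e-15), but without wild-type replicate 1 or without *eggd-1* replicate 1 the fold was under 4 (log2 fold change between 1.86 and 2.25 over the 4 omissions). *nhr-229*, on chromosome IV, rose most in reads: it had 63.2 and 65.2 RPM in wild-type and 194 and 173 RPM in *eggd-1*. The rise of 2.86-fold (log2 fold change 1.51 ± 0.07, SE, edgeR adjusted p = 1.28e-17) took it to 140 RPM per kb in *eggd-1*, between *nhr-249* with 208 and *nhr-15* with 122.2 RPM per kb. *nhr-150* had 1.49 and 1.25 RPM in wild-type and 4.25 and 4.61 RPM in *eggd-1* (log2 fold change 1.70), and *nhr-97* had 4.31 and 4.86 RPM in wild-type and 8.50 and 10.4 RPM in *eggd-1* (log2 fold change 1.04). *nhr-46* rose less (log2 fold change 0.68), and for none of these genes did the genotypes overlap.

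The receptor gene with the most reads differed little between genotypes. *nhr-15* had 368 and 351 RPM in wild-type and 318 and 336 RPM in *eggd-1*, with a log2 fold change of -0.14 ± 0.07 (SE, edgeR adjusted p = 0.0852). The sign was not stable: it was 0.01 with TMM factors and 0.02 with DESeq2. *nhr-15* made up 20.6% and 20.2% of the family's reads in wild-type and 24.2% in both *eggd-1* libraries. *nhr-1* had 203 and 204 RPM in wild-type and 97.1 and 124 RPM in *eggd-1*, and *nhr-249* had 157 and 161 RPM in wild-type and 99.2 and 103 RPM in *eggd-1*. Both fell, with log2 fold changes of -0.88 ± 0.08 and -0.65 ± 0.07 (SE, edgeR adjusted p = 1.19e-10 and 2.00e-09). *nhr-204* fell further, from 112 and 96.1 RPM to 40.6 and 42.7 RPM (log2 fold change -1.32), and *nhr-236* fell from 38.2 and 35.5 RPM to 22.4 and 22.2 RPM (log2 fold change -0.72).

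The deposited tables assign genes to small RNA classes by the Argonaute that binds their 22G-RNAs or the factor on which these depend. Only 27 of the 232 receptor genes carried such a class: 22 were HRDE-1, MUT-16, PRG-1 or WAGO-1 genes outside the CSR-1 class, and 5 were CSR-1 genes. The 22 genes held 76.1% of the family's wild-type sum. All 22 were tested, 18 fell and 3 rose (81.8% and 13.6%), and 5 fell by at least 4-fold (22.7%). Over all tested genes of these classes, 56.9% fell, 20.3% rose and 9.39% fell by at least 4-fold. Their median log2 fold change was -1.04, against -0.37 over all 1938 tested genes of these classes, and their sum in *eggd-1* was 0.692 ± 0.0288 of wild-type (SD, n = 2 libraries per genotype). The 3 that rose were *nhr-229*, *nhr-8* and *nhr-46*, and the 1 that passed in neither direction was *nhr-15*.

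Classes overlap, so the same genes recur in them. Of the 16 PRG-1 genes, 14 fell and 2 rose (87.5% and 12.5%, against 60.3% and 20.4% of all tested PRG-1 genes), with a median of -1.32 against -0.47. Of the 20 MUT-16 genes 17 fell, of the 18 HRDE-1 genes 15 fell, and of the 17 WAGO-1 genes 14 fell. Most genes of these classes fell in any case: 57% of all tested MUT-16 genes, 63.5% of HRDE-1 genes and 55.8% of WAGO-1 genes. The 11 WAGO-4 genes were split, with 4 lower and 4 higher (36.4% each, against 44.4% and 21.5% of all tested WAGO-4 genes) and a median of -0.02. None of the 232 receptor genes was in the ALG-3/4 or the ERGO-1 class.

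The 5 CSR-1 genes behaved in no single direction: *nhr-49* fell, *nhr-23* and *nhr-66* rose, and *nhr-86* and *nhr-274* did not pass. *nhr-274* had 25.9 and 27.6 RPM in wild-type and 24.97 and 27.9 RPM in *eggd-1*, which overlap. The sum of the 5 was 1.26 ± 0.0671 times the wild-type sum in *eggd-1* (SD, n = 2 libraries per genotype). Their median log2 fold change was 0.14, against -0.12 over all tested CSR-1 genes, of which 40.2% fell and 20.6% rose. Without any small RNA class were 205 receptor genes, of which 79 were tested, 39 fell and 10 rose (49.4% and 12.7%), with a median of -0.65. Over all tested genes without a class 38.2% fell and 17.3% rose, with a median of -0.32.

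**Figure D3:**
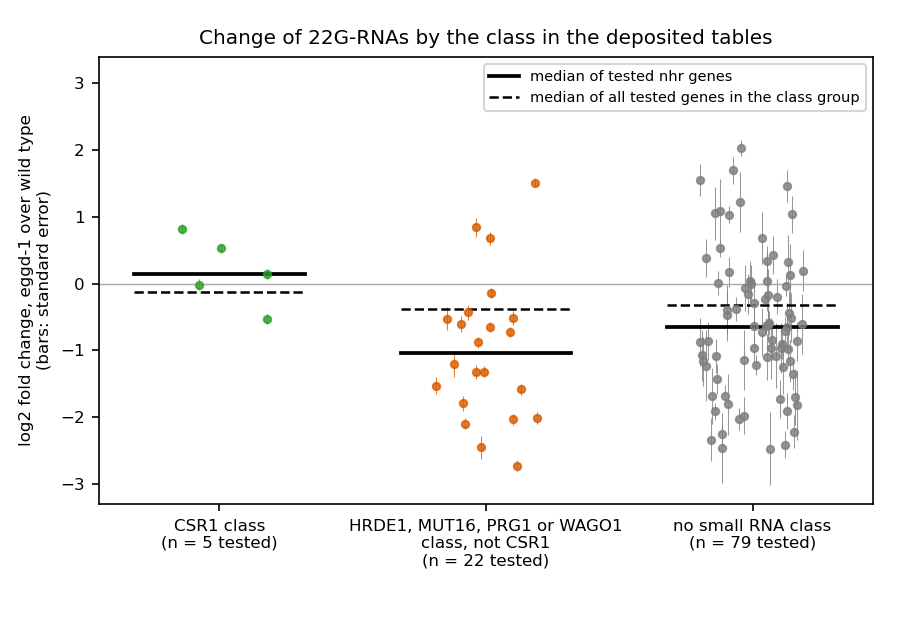
Log2 fold change of 22G-RNAs (*eggd-1* over wild-type, bars show the standard error) of each tested receptor gene by small RNA class; solid lines are medians of the receptor genes and dashed lines medians of all tested genes of the same class group. The solid line lies at -1.04 for the HRDE-1, MUT-16, PRG-1 or WAGO-1 genes, at 0.14 for the CSR-1 genes and at -0.65 for genes without a class.

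The tables also mark genes by germline sex bias. 13 receptor genes were marked spermatogenic, of which 10 were tested, 5 fell and 3 rose, with a median log2 fold change of -0.66. Over all 1584 tested spermatogenic genes the median was 0.68, and 20.6% fell and 50.9% rose. Among spermatogenic genes without a small RNA class, the median was -0.84 over 6 tested receptor genes and 0.48 over all 620 tested. Sets of 10 and 6 genes are too small to be read against these shares. The 3 spermatogenic receptor genes that rose were *nhr-171*, *nhr-23* and *nhr-234*, and *nhr-3* was among those that fell, from 41.5 and 40.6 RPM to 13.2 and 14.2 RPM (log2 fold change -1.58). Of 32 oogenic receptor genes, 28 were tested, 14 fell and 2 rose (50.0% and 7.14%), near the 44.5% and 16.7% of all tested oogenic genes.

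By position, 144 of the 232 receptor genes lie on chromosome V, where 51 were tested, 30 fell and 6 rose (58.8% and 11.8%, against 40.5% and 22.3% of all tested genes of the chromosome). On chromosome X 13 were tested, 8 fell (61.5%) and none rose, against 53.3% and 6.53% of all tested genes of the X, with a median log2 fold change of -0.86 against -0.59. On chromosome IV 10 of 25 fell and 6 rose (40% and 24%), near the 34.6% and 28.8% of all tested genes there. Chromosomes I, II and III held 17 tested receptor genes together, of which 10 fell and 3 rose, too few to read against the 40.4% to 42.1% of all genes that fell on these chromosomes.

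A group at the left end of chromosome V was picked out after its values had been seen. The first 1 Mb holds 25 receptor genes, of which 12 were tested, 10 fell and 5 of these fell by at least 4-fold: *nhr-58*, *nhr-98*, *nhr-123*, *nhr-132* and *nhr-180*. The other 2 were *nhr-15* and *nhr-212*, with log2 fold changes of -0.14 and -0.19. The median of the 12 was -1.74, and that of the other 75 tested genes of this interval was -0.48, of which 42 (56.0%) fell and 17 rose. Falls of at least 4-fold were not counted among these 75. Over the whole chromosome, 15.7% of the tested receptor genes and 6.11% of all tested genes fell by as much. Likewise, *nhr-122*, *nhr-92*, *nhr-87* and *nhr-146* lie side by side on chromosome IV between positions 1613892 and 1630756, with log2 fold changes of -2.22, -1.08, -1.81 and -2.03. 3 of them fell, and *nhr-92* did not pass (edgeR adjusted p = 0.0532). No other gene of that interval was tested. These 4 genes are too few to read against the 34.6% of all tested genes of chromosome IV that fell.

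Neighbouring receptor genes could be compared in few cases. 83 pairs of neighbours lay within 5000 bp of each other, both genes were tested in 15 pairs and both were called in 7. In 6 of these the direction was the same, downward in *nhr-123* and *nhr-98*, *nhr-58* and *nhr-132* and *nhr-87* and *nhr-146*, for example, and upward in *nhr-172* and *nhr-171*. In the other pair *nhr-101* fell (log2 fold change -0.71) and *nhr-68* rose (1.09). As 58 of the called receptor genes fell and 15 rose, most pairs of called genes share a direction whether or not they are neighbours. Whether neighbours agreed more often than other pairs was not tested. Similar sequences of neighbouring copies can share reads, and which reads were shared is not recorded in the tables.

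Genes that act with the receptors were taken from 4 further lists: other named nuclear receptors, cofactors, enzymes and transporters of sterol hormone synthesis, and receptor targets. Of 22 listed genes, 21 had an entry, 14 were tested, 6 fell and 2 rose (42.9% and 14.3%), none by 4-fold. These shares are near the 40.8% and 21.7% of all tested genes. Among the other receptors, *sex-1*, an X-signal element of sex determination, fell from 1.60 and 1.79 RPM to 0.960 and 0.810 RPM (log2 fold change -0.94, edgeR adjusted p = 0.00379). *daf-12*, the dafachronic acid receptor, had 0.674 and 0.736 RPM in wild-type and 0.320 and 0.597 RPM in *eggd-1* and did not pass (edgeR adjusted p = 0.172).

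Cofactors changed little apart from the chaperone. *daf-21*, the Hsp90 gene that in vertebrates folds steroid receptors, had 109 and 120 RPM in wild-type and 32.3 and 36.4 RPM in *eggd-1* (log2 fold change -1.73 ± 0.08, SE, edgeR adjusted p = 1.53e-18). *mdt-15*, the Mediator subunit that binds NHR-49, and *cbp-1*, a histone acetyltransferase, fell by log2 fold changes of -0.28 and -0.17. The corepressor genes *gei-8* and *din-1* did not pass. The fall of *daf-21* was thus the only one of the 3 above 2-fold.

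Of the sterol genes, *ncr-1* fell and *ncr-2* rose, both encoding Niemann-Pick type C cholesterol transporters. *ncr-1* had 1.03 and 0.960 RPM in wild-type and 0.366 and 0.597 RPM in *eggd-1* (log2 fold change -1.03, edgeR adjusted p = 0.0131), and *ncr-2* had 1.81 and 0.672 RPM in wild-type and 3.43 and 2.73 RPM in *eggd-1* (log2 fold change 1.33, edgeR adjusted p = 9.95e-05). *strm-1*, a sterol methyltransferase gene, fell slightly (log2 fold change -0.18, edgeR adjusted p = 0.0256) from 193 and 183 RPM to 166 RPM in both *eggd-1* libraries. Of the receptor targets, *acs-2*, an acyl-CoA synthetase gene activated by NHR-49, had 58.7 and 56.6 RPM in wild-type and 91.5 and 94.5 RPM in *eggd-1*. It rose 1.61-fold (edgeR adjusted p = 4.96e-10), and the desaturase genes *fat-5*, *fat-6* and *fat-7* had too few reads for a test.

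After periodate oxidation few 22G-RNA reads of the receptor genes were found. The 3′ ends of 22G-RNAs are known to be unmodified. The sum was 39.96 RPM in oxidized wild-type (Wilson 95% interval 37.6 to 42.4) and 32.5 RPM in oxidized *eggd-1* (30.1 to 35.2). There was 1 library per genotype and so no replicate check, and the intervals cover counting error only. The untreated sum was 44.1 ± 0.893 times the oxidized one in wild-type and 41.4 ± 1.60 times in *eggd-1* (SD over the 2 untreated libraries), against 37.3 and 36.1 over all 22G-RNA genes. RPM is a share of the genome-mapped reads of a library, so such ratios do not measure the amount of RNA that survived. The oxidized wild-type was N2 and the untreated one the PGL-1::RFP strain, so treatment and strain cannot be told apart in the former ratio. No receptor gene had a higher level in the oxidized library than the untreated mean in either genotype.

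The genes differed in the ratio of the untreated to the oxidized level. In the 26 genes with a wild-type mean of at least 10 RPM, the untreated level was between 7.84 and 453 times the oxidized one in wild-type, with a median of 86.2, where any oxidized read was found (24 genes). The lowest ratio, of *nhr-104*, rested on 49 oxidized reads, but the highest, of *nhr-190*, on 1 read, so the upper end of the range is uncertain. *nhr-15* had the highest level after oxidation, with 16.7 RPM in oxidized wild-type (41.7% of the sum of all receptor genes in that library) and 14.9 RPM in oxidized *eggd-1*. *nhr-48* had 3.87 RPM (3.20 to 4.69) in oxidized wild-type and 0.308 RPM (0.141 to 0.673) in oxidized *eggd-1*. *nhr-229* had 1.55 RPM (1.15 to 2.09) and 3.49 RPM (2.76 to 4.43). The oxidized libraries of *nhr-48* and *nhr-229* thus differed in the same direction as the untreated ones, beyond counting error. *nhr-40* had no read in either oxidized library, which allows up to 0.111 RPM in wild-type and up to 0.154 RPM in the mutant.

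**Figure D4:**
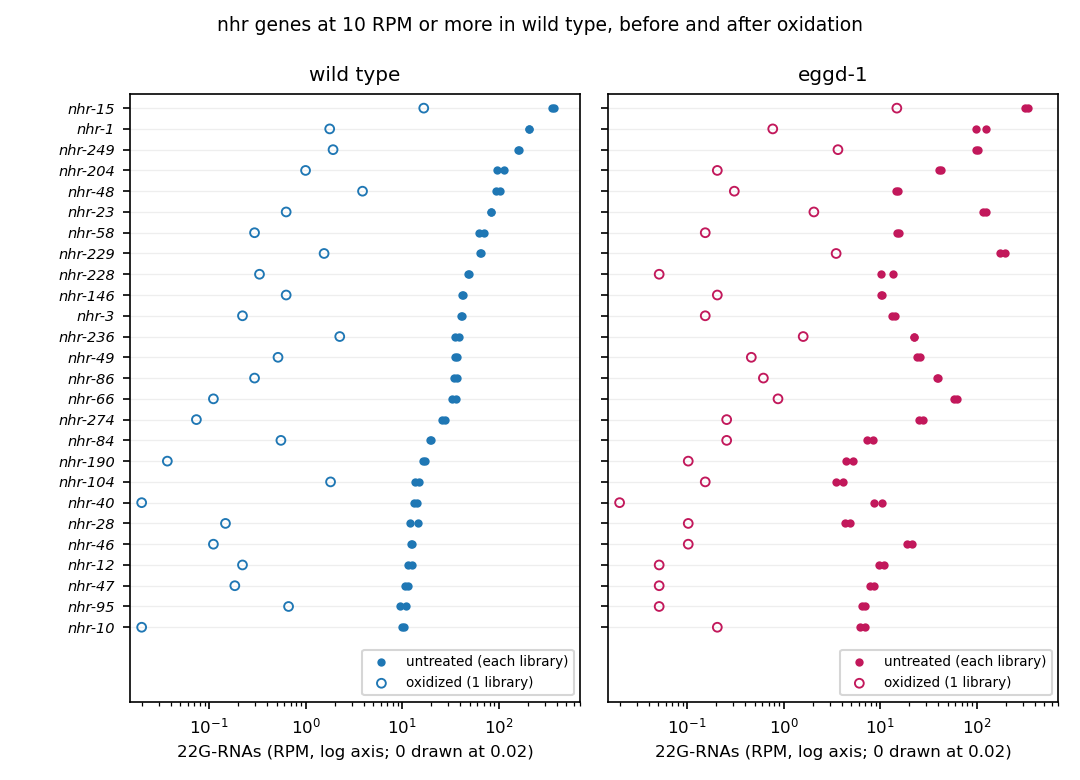
22G-RNA level (RPM, log axis) of the 26 receptor genes with at least 10 RPM in wild-type, in the 2 untreated libraries (filled) and the 1 oxidized library (open) of each genotype. Every open point lies to the left of the filled points of its gene, with *nhr-15* highest after oxidation at 16.7 and 14.9 RPM.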

How the data were processed

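Groups came from the sample labels. The authors trimmed reads with Trim Galore, removed structural RNAs, aligned the rest to WS279 with Bowtie without mismatches and counted 22G-RNAs antisense to genes. The deposited expected counts divide each read by its genome locations and overlapping features, and between 79.0% and 79.9% of them were whole (within 1e-06) in the untreated libraries. The deposited RPM values are scaled by the authors to genome-mapped reads. Strand was used, positions within genes are not in the tables, and an absent entry was taken as 0.

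Expected counts were rounded and fitted with edgeR 4.0.16 (quasi-likelihood, R 4.3.3) for the untreated samples with a single genotype term. Genome-mapped reads served as library size, and the filter used a minimum count of 10. A gene was called at a p below 0.05 after Benjamini-Hochberg adjustment, and by a stricter rule also with a 4-fold change. On simulated counts of 11424 genes, 195 of the 198 genes changed 4-fold were called, and 10 unchanged ones. Smaller changes, and changes in most genes at once, were not simulated. The study used 2 biological replicates. Alternatives were TMM factors, other library sizes, DESeq2 1.42.0, limma 3.58.1, other filters, a replicate block, a fold threshold in the test and omission of each library.

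Named genes were the 8 with the highest level per kb, those called at 4-fold, the 8 largest changes each way with a mean of at least 50 counts, and the lists. The members and lists were chosen with earlier results of these data known. Names, positions and exon lengths came from Ensembl 115 (WBcel235). Replicates were not duplicates: the chi-square per degree of freedom over all tested genes was 3.45 in wild-type and 2.60 in *eggd-1*.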

Additional observations from a re-analysis of the deposited data

Results flagged for a closer look

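*nhr-249* differed in opposite directions between the untreated and the oxidized libraries. In the untreated libraries its level in *eggd-1* was 0.638 of that in wild-type, whereas after oxidation *eggd-1* had 1.90 times the wild-type level, with 3.65 RPM (Wilson 95% interval 2.89 to 4.60) against 1.92 RPM (1.46 to 2.52). The intervals do not overlap but cover counting error only. There was 1 oxidized library per genotype, the wild-type strains differ between the treatments, and the difference between the ratios was not tested.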

How the results depend on the processing

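58 receptor genes fell. 30 did so with DESeq2, all of them among the 58. There were 36 when only genes with whole counts were taken, 35 at a mean of at least 50 counts and 38 with a 2-fold limit. Fits without 1 library called 51 to 57 falls, of which 48 to 54 were among the 58. 15 receptor genes rose, 9 of them with a mean of at least 50 counts, and fits without 1 library called 12 to 13 rises, of which 12 to 13 were among the 15. The 12 falls of at least 4-fold became 7 with DESeq2, 1 with the fold limit inside the test, 2 with limma on log2(RPM + 1) and 6 with whole counts alone (11 to 17 with 1 library left out). The single 4-fold rise became 3 without a filter and 0 with the miRNA total as library size, the fold limit in the test or limma on log2(RPM + 1), and leaving out 1 library gave 0 to 1.

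The ratio of summed levels was 0.847 with TMM factors, 0.800 and 0.721 with the 22G-RNA or miRNA total as library size, and 0.728 without *nhr-15*. The ratio of oxidized to untreated sums, 0.0227 in wild-type and 0.0241 in *eggd-1*, was 0.0160 and 0.0171 with all assigned reads as library size. The share of rises among all called genes was 34.7%, but 48.1% with TMM factors and 49.3% with DESeq2. Among called receptor genes it was 20.5%, 23.5% and 30.2%. The difference between the medians of receptor genes and all genes was -0.47, and -0.26 with limma on log2(RPM + 1). The causes were not tested.

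Of 41 named receptor genes tested, 32 were called and 25 kept direction and call in every setting that gave a value. Calls were lost for *nhr-6*, *nhr-13*, *nhr-14*, *nhr-40*, *nhr-57*, *nhr-68* and *nhr-123*, each with DESeq2 and some also without 1 library. The sign turned only in genes that were not called: *nhr-15* (0.0079 with TMM factors, 0.0166 with DESeq2), *nhr-85* (-0.0463 with the miRNA total, -0.0316 and -0.0049 with limma at pseudocounts of 0.1 and 1 RPM) and, with 1 library left out, *nhr-25* (-0.38 to 0.84), *nhr-41* (-1.05 to 0.19), *nhr-85* (-0.46 to 0.39) and *nhr-91* (-0.47 to 0.25).

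Deviations of same-numbered replicates correlated at r = 0.0574 across 11741 genes (not independent replicates). This low value does not settle whether the numbers pair samples, and the labels do not say. A replicate block gave 59 falls and 15 rises.

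Depth limits the 126 untested receptor genes, of which 9 were called without a filter, and 2 libraries per genotype limit the rest.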

Other observations

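26G-RNAs, the primary siRNAs that in *C. elegans* start 22G-RNA production at some germline transcripts, were almost absent at the receptor genes. They were found at 18 and 13 receptor genes in the wild-type libraries and at 11 in each *eggd-1* library, and summed to 1.15 and 0.640 RPM in wild-type and 0.877 and 0.943 RPM in *eggd-1*. The *eggd-1* values lie between the wild-type ones. No single receptor gene had more than 5.33 reads of 26G-RNA in any library.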
